A study of Mus musculus with 5 samples.

Results

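Among the fresh cells sorted as ILC2s from the lungs of tumour-bearing mice at week 3, 632 of 1601 cells carried genes of early thymocytes and few of 12 genes of dividing cells. These resting cells were chosen by their own UMIs: each had a UMI of at least 2 of Dntt, Ptcra, Arpp21, Myl10, Ly6d and Rag1, and of at most 1 of 12 cell-cycle genes (Mki67, Top2a, Birc5, Cdk1, Ccna2, Ccnb1, Ccnb2, Cenpf, Ube2c, Nusap1, Tpx2 and Cdc20). Resting here means only that limit on the 12 genes, and some of these cells had high levels of replication genes, as given further on. The resting cells made up 39.5% of the library (Clopper-Pearson 95% interval 37.1 to 41.9%) and 632 of the 16530 cells kept in the whole series. Other cells of the same library are set beside them: 216 cycling cells, which passed the thymocyte part of the rule and had 2 or more cell-cycle genes, and 712 comparison cells with none of the 6 thymocyte genes. The remaining 41 cells had exactly 1 of the 6. The library was labelled as ILC2s, and by their RNA the resting and cycling cells go against that label.

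RNA of single cells was measured with the droplet-based 10x Genomics 3′ assay in 5 libraries, 1 to a group. All mice were young female C57BL/6 wild-type animals, and the cells of several mice were pooled in each library. The naïve library came from mice without a tumour and was sequenced fresh. The ta-non-activated libraries of weeks 2 and 3 came fresh from mice that had received TC1 cells, a mouse lung tumour line carrying viral oncogenes, under the skin of the flank, and the ta-activated libraries of the same weeks held such cells after a week-long culture with IL-2, IL-33 and TSLP. All cells were sorted as lineage-negative, ST2+, CD127+, Thy1.2+ and CD45+, and the lineage antibodies included ones to CD3ε/γ, CD4, CD8α and TCRβ. With 1 library to a group there was no replicate, and nothing below was tested: intervals cover counting error only, not differences between mice or cells, and cells of 1 library are not replicates. Whether the resting cells go with the tumour, the week or the handling of this library cannot be told apart. Thymic tissue in the dissection and a mix-up of samples were not tested either.

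Early thymocytes are the T cell precursors of the thymus before they carry CD4 or CD8. Notch signals commit them to the T lineage, the RAG1 and RAG2 enzymes cut the T cell receptor genes for rearrangement, terminal transferase (Dntt) adds bases at the joints, and a finished β chain pairs with the pre-T α chain (Ptcra) before the cells divide. ILC2s, the cells the sort was set for, are tissue lymphocytes that answer IL-33 through ST2 (Il1rl1) and make type 2 cytokines without a rearranged receptor.

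The 632 cells held 3823839 UMIs, with 544 in the shallowest, a median of 5636 and 15090 in the deepest. The cycling cells were deeper, with a median of 14635 UMIs, and the comparison cells shallower, with a median of 2788.5. Median genes per cell were 2039, 3444 and 1119.5 in the same order, and the median mitochondrial share was 3.31% in the resting cells, 2.63% in the cycling cells and 3.17% in the comparison cells. Levels below are CPM, a gene's summed UMIs scaled to the same total in each class, with exact Poisson 95% intervals in parentheses. The assay counts molecules by their 3′ end, so no level of one gene is set against that of another.

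The number of thymocyte genes per cell, which the rule used, is given as a description. Of the 632 resting cells, 163 had all 6 genes, 239 had 5 and 202 had 4, against 21 with 3 and 7 with exactly 2. The 7 cells just inside the rule had a median of 2726 UMIs and Dntt at 230.1 CPM (74.7 to 537), and the 41 cells just outside it, with 1 gene, had a median of 3194 UMIs, Dntt at 126 CPM (74.5 to 199) and Il1rl1 at 223 CPM (153 to 315). On the cell-cycle side, 458 resting cells had none of the 12 genes and 174 had 1, which was Top2a in 96 of them. The 24 cycling cells just past that limit, with exactly 2 cycle genes, had a median of 7844 UMIs and Mcm6 at 447 CPM (361 to 546), where the 174 cells just inside had 211 CPM (185 to 238).

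**Figure D1:**
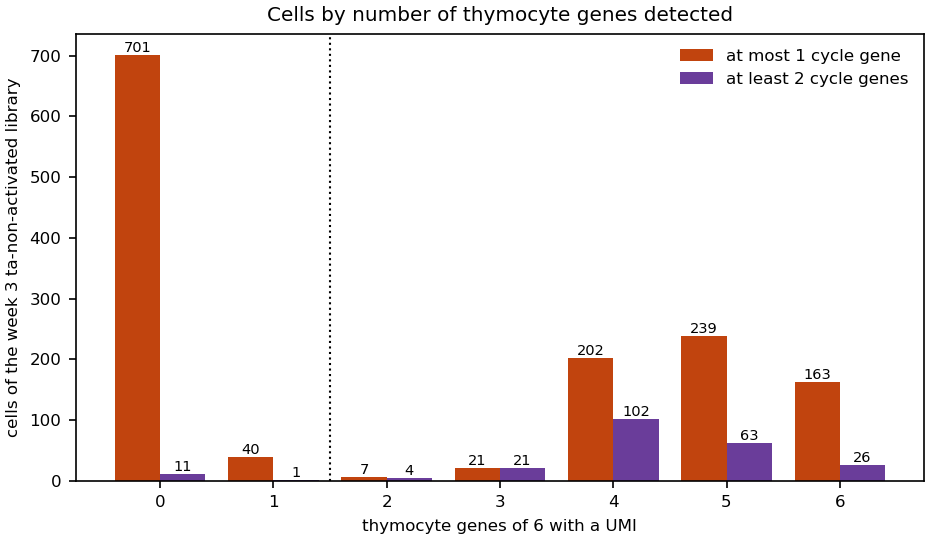
Cells of the week 3 ta-non-activated library (vertical axis, number of cells) by how many of the 6 thymocyte genes had a UMI (horizontal axis), split into cells with at most 1 and with at least 2 cell-cycle genes; the dotted line is the limit of the rule. Few cells lie next to the limit: 7 and 4 with 2 genes, and 40 and 1 with 1 gene.

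As the rule required, the comparison cells had 0 UMIs of the 6 genes, so these values describe the choice. Dntt stood at 1624 CPM (1584 to 1665) in the resting cells and 901 CPM in the cycling cells. Ptcra stood at 176 CPM (163 to 190.1) and 57.5 CPM, and Rag1, which cuts receptor genes, at 130.2 CPM (119 to 142) and 29.8 CPM. Myl10, a myosin light chain, stood at 2020.2 CPM and 446 CPM, Ly6d, a surface protein of early lymphocytes, at 2324 and 1002 CPM, and Arpp21, an RNA-binding protein, at 659.5 and 258 CPM. Each of the 6 genes had a higher level in the resting than in the cycling cells. In GENCODE M21 (GRCm38) Dntt lies at chr19:41029275-41059525, Ptcra at chr17:46755663-46763712, Arpp21 at chr9:112065091-112235938, Myl10 at chr5:136693146-136701094, Ly6d at chr15:74762056-74763620 and Rag1 at chr2:101638282-101649501.

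None of the other libraries held such a population. No cell met the rule among 6389 naïve cells (the limit of 3 counts that a count of 0 allows is a share of 0.047%), 1823 cells of week 2 ta-non-activated (limit 0.165%) or 2895 cells of week 2 ta-activated (limit 0.104%), and 6 of 3822 cells of week 3 ta-activated did (0.157%, Clopper-Pearson interval 0.0576 to 0.341%). Rag1 had 600 UMIs in the week 3 ta-non-activated library and 0 in each of the other 4. Dntt had 9226 UMIs there against 5 in naïve, 0 in both week 2 libraries and 4 in week 3 ta-activated. The 15 genes outside the rule with the highest ratio to the comparison cells were chosen within this library, so their levels elsewhere are a description. Gm525 had 39.9 CPM over all cells of the week 3 ta-non-activated library and 0 UMIs in the other 4, and Gzma had 599.6 CPM there, 20.8 CPM in week 2 ta-activated and 13.9 CPM in naïve. Few cell barcodes were shared with this library, 7 in naïve, 1 in week 2 ta-non-activated, 3 in week 2 ta-activated and 1 in week 3 ta-activated, of which 2, 0, 3 and 0 belonged to resting cells.

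**Figure D2:**
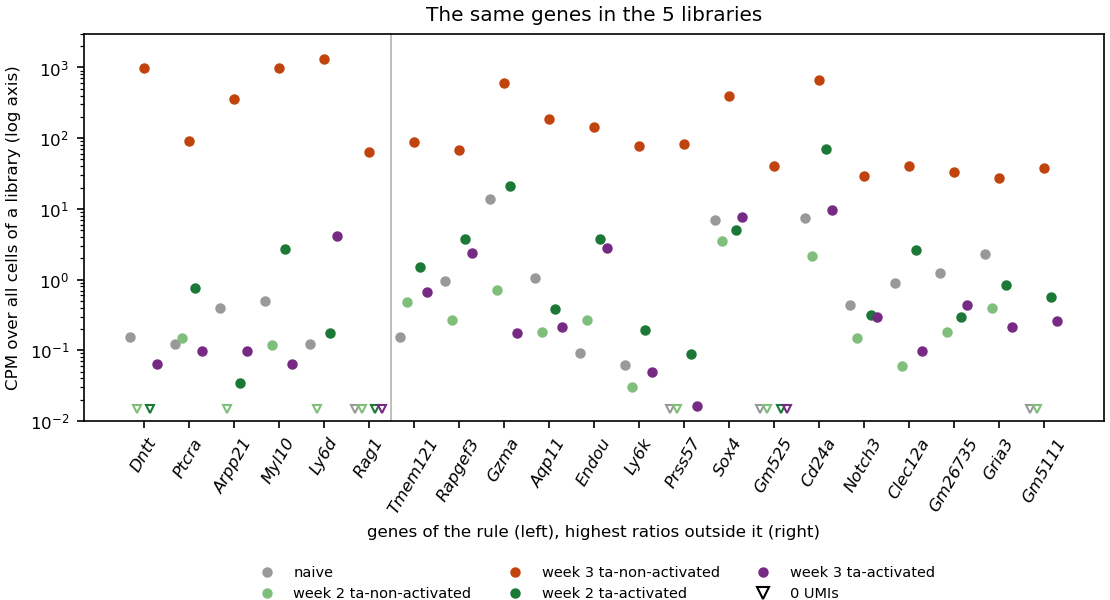
Level over all kept cells of each library (vertical axis, CPM, log scale) of the 6 genes of the rule and of the 15 genes outside it with the highest ratio of resting to comparison cells (horizontal axis); open triangles mark genes with 0 UMIs. The week 3 ta-non-activated library lies above the other 4 at all 21 genes, with Cd24a in week 2 ta-activated, at 70.2 CPM, the nearest of the others for that gene.

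The promoters of Ptcra and Rag1 are shown because both genes were high and low in much the same clusters of the resting cells, described further on. Below are the 250 bases before each start in RefSeq (GRCm38.p6, minus strand, 5′ to 3′), chr17:46763713-46763962 for Ptcra and chr2:101649533-101649782 for Rag1, with 2 motifs in capitals: the E-box CAGCTG and the RBPJ core TGGGAA or its reverse TTCCCA, both searched on both strands.
Ptcra: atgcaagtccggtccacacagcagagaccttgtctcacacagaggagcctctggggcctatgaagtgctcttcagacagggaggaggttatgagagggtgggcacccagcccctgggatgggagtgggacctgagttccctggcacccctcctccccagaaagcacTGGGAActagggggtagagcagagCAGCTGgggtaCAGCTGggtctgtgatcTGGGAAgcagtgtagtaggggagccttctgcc
Rag1: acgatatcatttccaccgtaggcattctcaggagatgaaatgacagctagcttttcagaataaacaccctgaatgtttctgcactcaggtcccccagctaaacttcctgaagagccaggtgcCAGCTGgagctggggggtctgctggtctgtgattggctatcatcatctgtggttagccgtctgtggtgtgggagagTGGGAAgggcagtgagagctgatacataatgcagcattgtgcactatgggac
The Ptcra sequence held 2 matches of each motif and the Rag1 sequence 1 of each, while those of Dntt and Notch3 held 0. Of 32841 RefSeq promoters of this length, 13.0% held the E-box and 21.6% the RBPJ core, and 1.26% and 2.76% held 2 or more. The motifs were chosen with the sequences in view, no match overlapped another, and a match is a run of letters, not a bound site.

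Across 6014 genes with at least 20 CPM in either class, 1357 were at least 2-fold higher in the resting than in the comparison cells (22.6%) and 812 at least 2-fold lower (13.5%), on the log2(CPM + 1) scale. The median log2 ratio of all these genes was 0.33, and scaling by the TMM factors of the classes, a factor of 0.22 on the log2 scale that lowers ratios by up to that amount, gave 965 higher and 1049 lower. Counts of lists below are to be read against these shares. A gene under 20 CPM in either class entered only through the other class, so the filter set its direction. Genes of the rule were left out of the lists they also belong to.

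The CD3 genes Cd3d, Cd3e and Cd3g stood high, while genes of receptor signalling went both ways. Cd3d, in the CD3 complex that carries the receptor's signal, had 1147 CPM (1113 to 1181) in the resting cells and 60.4 CPM (50.3 to 71.8) in the comparison cells, 19.0-fold apart (15.9 to 22.8). Cd3e stood at 587 and 32.3 CPM, and Cd3g at 3119 and 309 CPM. Of 17 genes of the CD3 and proximal signalling list tested, 9 were at least 2-fold higher, among them the kinase Lck at 560 and 56.6 CPM and the thymocyte adaptor Themis at 150 and 7.13 CPM, and 4 were lower. Those lower included Zap70, the kinase recruited to the engaged receptor (14.9 and 62.8 CPM). Cells thinned to 2000 UMIs gave a UMI of Cd3d in 72.2% of resting cells (interval 68.5 to 75.6%), 59.5% of cycling cells (52.6 to 66.2%) and 6.31% of comparison cells (4.53 to 8.53%), against 86.9%, 89.8% and 6.74% without thinning.

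The constant genes of the receptor did not all differ in the same direction. Trac, the constant gene of the α chain, which is rearranged last, had 1 UMI in 632 cells (0.262 CPM, up to 1.46) and 59 UMIs in the comparison cells (28.1 CPM). Trbc1 and Trbc2, of the β chain, had 1617 and 2041 CPM in the resting cells and 364 and 592 CPM in the comparison cells, and these near-identical genes share sequence, so their split is uncertain. Trdc, of the δ chain, had 385 and 45.2 CPM, and Tcrg-C1, of a γ chain, 577 and 25.2 CPM. Of 7 constant genes tested, 6 were at least 2-fold higher and Trac lower. Variable segments of the β locus had 89 UMIs in 79 resting cells (23.3 CPM), 119 UMIs in 80 of the deeper cycling cells (35.8 CPM) and 4 UMIs in 3 comparison cells (1.90 CPM). Those of the γ locus had 925 UMIs in 373 resting cells, of which Trgv2 gave 820. The sum over segments of the δ locus went the other way, with 39 UMIs in 37 resting cells (10.2 CPM) and 432 UMIs in 272 comparison cells (205 CPM). Trdv4 alone gave 3 of the former and 428 of the latter, so this direction is that of a single segment. The 3′ assay reads variable segments rarely, so these counts say little of which cells had a finished chain.

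Of 7 recombination and joining genes tested beside Dntt and Rag1, 4 were at least 2-fold higher than in the comparison cells and none was 2-fold lower. Xrcc6, a subunit of the Ku end-binding complex, stood at 248 CPM (233 to 265) and 17.1 CPM, Dclre1c (Artemis, which opens the hairpin ends) at 39.2 and 8.08 CPM, and the ligase Lig4 at 29.3 and 4.75 CPM. Hmgb1, the other gene counted, at 1188 and 574 CPM, fell just short of 2-fold with TMM scaling. Rag2, the partner of Rag1 in the nuclease, had 35 UMIs in 33 resting cells (9.15 CPM, 6.38 to 12.7) and 0 in the comparison cells, which is at least 6.42-fold higher, and it lay under 20 CPM.

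Notch genes were mixed against the comparison cells. Of 10 tested against the cycling cells, 6 were at least 2-fold higher, where 13.4% of all genes were, and 5 with TMM scaling. Notch3, a receptor of the pathway and one of the 15 genes of highest ratio, had 61.7 CPM (54.1 to 70.1) and 0 UMIs in the comparison cells, at least 43.3-fold higher. Notch1, the receptor that commits thymocytes, stood at 198 and 12.8 CPM, 15.5-fold apart (10.5 to 23.6). Hes1, a repressor switched on by Notch, had 1742 CPM (1700.4 to 1784) in the resting cells, 465 CPM in the cycling cells and 503 CPM in the comparison cells. Dtx1, another target, had 27.2, 3.61 and 0.951 CPM. Of 12 Notch pathway genes tested, 5 were at least 2-fold higher and 3 lower, namely Notch2 at 16.7 and 125 CPM, Rbpj, the pathway's DNA-binding factor, at 66.4 and 261 CPM, and the protease subunit Psen2 at 7.58 and 64.2 CPM.

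Among T lineage transcription factors, 11 of 23 tested were at least 2-fold higher than in the comparison cells and 5 were lower. Sox4, one of the 15 genes of highest ratio, stood at 701 and 9.03 CPM, Myb, needed for early T cell growth, at 445 and 11.4 CPM, and Tcf7, a factor of T cell commitment, at 480 and 44.2 CPM. Bcl11b, which ILC2s also use, stood at 597 and 191 CPM. The factors lower in the resting cells included Gata3, shared by T cells and ILC2s, at 76.1 and 556 CPM, and Id2, which blocks E proteins in innate lymphocytes, at 47.1 and 657 CPM.

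Stage genes gave an uneven picture. Of 11 genes of the stages before CD4 and CD8 tested beside Ptcra, 7 were at least 2-fold higher, among them Cd24a, a surface protein of immature lymphocytes, at 1148 and 17.1 CPM. Il2ra, the IL-2 receptor α chain of early thymocytes and ILC2s alike, had 200 CPM (186 to 214) in the resting cells, 52.9 CPM in the cycling cells and 153 CPM in the comparison cells. Cells thinned to 2000 UMIs gave a UMI of Il2ra in 31.2% (27.6 to 35.0%), 13.5% (9.22 to 18.8%) and 23.8% (20.5 to 27.3%), against 60.9%, 38.4% and 32.2% without thinning. Of 14 genes of the earliest progenitors, 2 were tested and both were lower, Kit at 20.1 CPM (189 CPM in the comparison cells) and Cd44 at 3.40 CPM (236 CPM). The other 12 lay under 20 CPM in both classes, among them Flt3 with 1 UMI in each, Cd34 with 2 and 0, and Lmo2 with 3 and 11. Of the coreceptors of later thymocytes, Cd4 had 3 UMIs, Cd8a 1 and Cd8b1 20 UMIs in 5 resting cells, against 0, 0 and 3 in the comparison cells, and Cd8b1 had 187 UMIs (56.2 CPM) in the cycling cells. Some other genes of the CD4 and CD8 stages had higher levels. Of 6 tested beside Arpp21, 5 were at least 2-fold higher than in the comparison cells and none was 2-fold lower. The list summed to 84.6 CPM in the comparison cells, with 4 of its genes at 0 UMIs. The count and the median log2 ratio of 4.24 thus partly follow from the filter and are a description. Aqp11 and Endou, both among the 15 genes of highest ratio, stood at 337 and 235 CPM against 2.38 and 1.43 CPM.

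The label of thymocyte-like cells was set beside lists outside the rule, each of which held genes in both directions or at low counts. These counts describe the label and do not test it. Genes under 20 CPM in the comparison cells entered only through the resting cells. Some genes belong to several lists and were counted in each, so the counts are not independent. Il2ra, Dtx1, Notch3 and Hes1 are in both the Notch list and that of the stages before CD4 and CD8. The latter also shares Trdc and Tcrg-C1 with the constant genes of the receptor. The CD3 and signalling list had 9 genes higher and 4 lower, the Notch list 5 and 3, and the T lineage factors 11 and 5. The list of stages before CD4 and CD8 had 7 and 1. That of the CD4 and CD8 stages had 5 and 0, although Cd4, Cd8a and Trac had 3, 1 and 1 UMIs. The earliest progenitor list had 0 and 2, and the mature T cell list 3 and 4. The lists did not place the cells at a single stage, and no cell of the thymus was measured beside them.

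The sort gate did not match the RNA of these cells. Il1rl1, which encodes the ST2 of the gate, had 9 UMIs in 5 of 632 resting cells (2.35 CPM, 1.08 to 4.47) and 734 UMIs in the comparison cells (349 CPM), 148-fold more (77.7 to 326). Of those 9 UMIs, 8 lay in a cluster of 8 cells described further on, and without these cells the log2 ratio was -8.11 in place of -6.71. At 2000 UMIs a cell, 0.48% of resting cells (0.0991 to 1.40%) and 44.5% of comparison cells (40.5 to 48.5%) had a UMI of it. Il7r (CD127) stood at 108 CPM (98.1 to 119) and 1509 CPM, 13.9-fold more in the comparison cells (12.6 to 15.5). Thy1 and Ptprc (CD45) differed by less than 2-fold, at 183 and 159 CPM and at 353 and 426 CPM. Of the 13 genes of the lineage antibodies, 4 reached 20 CPM, Cd3e, Cd3g, Trbc1 and Trbc2, and all 4 were at least 2-fold higher in the resting cells. How much of these proteins lay on the cell surface was not tested.

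**Figure D3:**
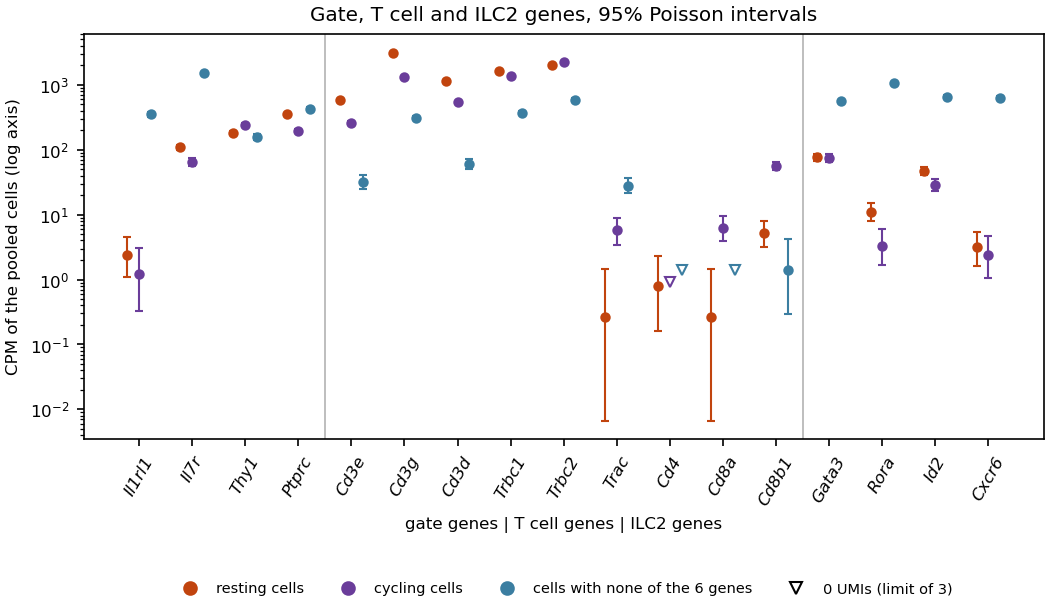
Level (vertical axis, CPM on a log scale, with 95% Poisson intervals) of genes of the sort gate, of T cells and of ILC2s (horizontal axis) in the resting, cycling and comparison cells; open triangles mark 0 UMIs, drawn at the level of 3 UMIs. Il1rl1 lies at 2.35 CPM in the resting cells and 349 CPM in the comparison cells, and Cd3e at 587 and 32.3 CPM.

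Genes of ILC2s were low as a group. Of 24 tested, 23 were at least 2-fold lower in the resting cells, with a median log2 ratio of -6.11 where the median of all genes was 0.33. Cxcr6, a chemokine receptor, had 3.14 CPM (1.62 to 5.48) and 634 CPM, 202-fold more in the comparison cells (115 to 392), with a log2 ratio of -8.97 in place of -7.26 without the same 8 cells. Rora, a transcription factor that ILC2s need, had 1054 CPM in the comparison cells, 96.0-fold more than in the resting cells, which held it at 391 CPM in the same 8 cells and at 5.05 CPM in the others. The cytokine gene Il13 had 0 UMIs in the resting cells and 173 in the comparison cells, and Il5 had 4 and 429. Areg, the growth factor amphiregulin, stood at 60.7 CPM (53.1 to 69.0) in 98 resting cells against 892 CPM. Il17rb, a receptor of IL-25, was the tested gene not 2-fold lower, at 45.0 and 39.0 CPM. Of 12 ILC2 genes not expected in thymocytes, 515 resting cells had none, 106 had 1 and 11 had 2 or more, where 564 of the 712 comparison cells had 2 or more. The 10 genes of lowest ratio also held S100a6, S100a4, Calca, Pxdc1, Fgl2, Trdv4 and Ccdc184, with 3 to 57 UMIs each in the resting cells and 428 to 4020 in the comparison cells. The 8 cells held 53 of the 57 UMIs of S100a4, whose log2 ratio was -9.86 without them and -6.91 with them.

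The genes of highest ratio outside the rule had other roles as well. Tmem121, a membrane protein, had 160.0 CPM (148 to 173) in 330 resting cells and 0 UMIs in the comparison cells, at least 112-fold higher. Rapgef3, an exchange factor activated by cAMP, had 108 CPM and 0 UMIs, at least 75.7-fold higher. The cycling cells held Tmem121 at 65.3 CPM and Rapgef3 at 66.8 CPM. Against all cells of the library that are not resting cells, their log2 ratios were 1.99 and 1.41. Gzma, a granule protease best known in NK and killer T cells, had 601 CPM (577 to 626) in 429 resting cells, 963 CPM in the cycling cells and 4.75 CPM in the comparison cells, 126-fold above the last (68.6 to 264). Against all cells of the library that are not resting cells, which include the cycling ones, its log2 ratio was 0.01. Gm525, Clec12a, Gm26735 and Gria3 also had 0 UMIs in the comparison cells, and Ly6k, Prss57 and Gm5111 had 1, 2 and 1. Prss57 thus stood 152-fold higher, with a counting interval from 41.8 to 1257.

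Markers of other cells that the sample could hold came mostly from a few genes, and several lists summed higher in the resting than in the comparison cells. Of 12 B lineage genes, 4 were at 0 UMIs, among them Pax5, Ms4a1 and Vpreb3, and the list summed to 157 CPM in the resting and 68.0 CPM in the comparison cells, with Ighm at 108 and 62.8 CPM. Of 8 plasmacytoid dendritic genes, Siglech and Klk1 were at 0, and the list summed to 739 and 145 CPM, with Bst2 at 519.6 and 82.7 CPM. Of the 4 of these tested, 3 were at least 2-fold higher in the resting cells. Of 9 mast and basophil genes, 8 were at 0, and Cpa3 gave all 134 CPM in the resting and 35.7 CPM in the comparison cells. Of 10 NK genes, 7 were at 0, including Ncr1, Eomes and Tbx21, and the list summed to 606 and 291 CPM, of which Gzma gave 601 in the resting cells. The 10 myeloid genes summed to 169 and 293 CPM with 4 at 0 in the resting cells, among them Csf1r, and Cst3 gave 134. The 16 epithelial, endothelial, stromal and red cell genes summed to 193 and 126 CPM with 7 at 0, and Epcam, which thymocytes also express, gave 139. Their part in the other results was not tested.

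Genes of later T cells and of cytokine receptors were less uniform. Of 11 mature T cell genes tested, 3 were at least 2-fold higher than in the comparison cells and 4 lower. Of 8 genes of γδ T cells tested, 5 were higher, among them Tcrg-C2 at 511 and 9.51 CPM, and 3 lower, namely Maf, Il17a and Cd9. This list shares Trdc, Tcrg-C1, Tcrg-C2 and Tcrg-C4 with the constant genes counted above. Of 14 cytokine and chemokine receptors tested, 2 were higher and 9 lower. Those higher included Ccr9, which guides progenitors to the thymus, at 130.2 and 14.7 CPM.

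Of 15 heat shock and early response genes, which are known to respond to stress, 6 were at least 2-fold higher than in the comparison cells and 5 lower, with a median log2 ratio of -0.46. The chaperone Hspa1a stood at 1280.1 CPM (1245 to 1317) in the resting cells, 658 CPM in the cycling cells and 174 CPM in the comparison cells, and Hsp90aa1 at 2551, 1962 and 298 CPM. Over the whole libraries, Hspa1a had 793.7 CPM in week 3 ta-non-activated, 120 CPM in naïve and 3.88 CPM in week 2 ta-non-activated, while Hsp90aa1 had 1803 CPM, 342 CPM and 1130.2 CPM in the same libraries. Fos was among the genes lower, at 503 and 1280.4 CPM. The part of these genes in the other differences was not tested. Of 10 class I and class II genes tested, 6 were at least 2-fold lower, among them H2-K1 at 556 and 1861 CPM, and 3 were higher, among them Tap2, of the peptide transporter, at 215 and 45.6 CPM.

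Against the cycling cells, 770 of 5764 genes were at least 2-fold higher in the resting cells (13.4%) and 491 lower (8.52%), and TMM scaling, with a factor of 0.22 on the log2 scale, turned this to 487 and 718. The cycle genes of the rule fixed part of the contrast. Of 22 S phase genes outside the rule, 21 were at least 2-fold lower, and of 24 other mitosis genes 23. Pclaf, a partner of the replication clamp, had 7.32 CPM (4.87 to 10.6) in the resting and 876 CPM in the cycling cells, 120-fold more in the latter (82.6 to 180). Hist1h3c, a histone made in S phase, and Kif4, a mitotic motor, had 0 UMIs in the resting cells, at least 74.8-fold and 51.4-fold lower. Esco2, Bub1, Hmmr, Pbk, Aurkb, Spc25 and Shcbp1, also among the 10 of lowest ratio, had 1 to 5 UMIs each.

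The resting cells were not low for each replication gene. Uhrf1, a keeper of DNA methylation, was the S phase gene within 2-fold of the cycling cells, at 133 and 178 CPM, and stood at 4.28 CPM in the comparison cells. Mcm6 and Mcm7, of the replicative helicase, stood at 165 and 143 CPM, between the cycling cells (413 and 343) and the comparison cells (34.7 and 18.5). Cdk6, a kinase of cell-cycle entry, had 701 CPM in the resting cells, 357 in the cycling and 48.0 in the comparison cells. Against the comparison cells, 11 of 16 S phase genes tested were at least 2-fold higher and none lower, and with TMM scaling 9 of 15 were higher and 1 lower.

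Other genes stood higher in the resting than in the cycling cells. Of the Notch pathway genes tested none was 2-fold lower, with Hes1 3.75-fold higher (3.55 to 3.96) and Dtx1 7.54-fold (4.13 to 15.1). Il2ra was 3.77-fold higher (3.20 to 4.47). Of 11 quiescence genes, 7 were higher, 5 with TMM scaling, among them Btg1, which slows growth, at 654 and 168 CPM, and the kinase inhibitor Cdkn1a at 193 and 55.9 CPM. Against the comparison cells, 2 of 12 quiescence genes were higher and 2 lower, Btg1 among the latter at 2800.3 CPM, and 5 of 10 mitosis genes outside the rule were higher and none lower. Of 7 survival genes tested against the comparison cells, 2 were higher and 2 lower. Against the cycling cells, 3 of 5 were higher and none lower, with Mcl1 at 825 and 245 CPM and Bcl2 at 129 and 39.7 CPM. The 10 genes of highest ratio included Muc3, a mucin, at 29.8 and 1.20 CPM, Ptgs2, a prostaglandin enzyme, at 47.9 and 2.71 CPM, Gzmb, a granule protease, at 27.7 CPM against 5 UMIs in all, and the cytokine gene Ifng at 43.4 and 4.21 CPM. Few cells held the last: Ifng had 166 UMIs in 43 resting cells and Gzmb 106 UMIs in 33. The log2 ratio of Gzmb was 3.52, and 2.30 when the mean over cells was used. The other genes of that rank were Ifi44, Spsb1, Calcoco1, Tshz2, Pld4 and Rasa4, with ratios of 8.60-fold (Rasa4) to 12.9-fold (Spsb1).

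**Figure D4:**
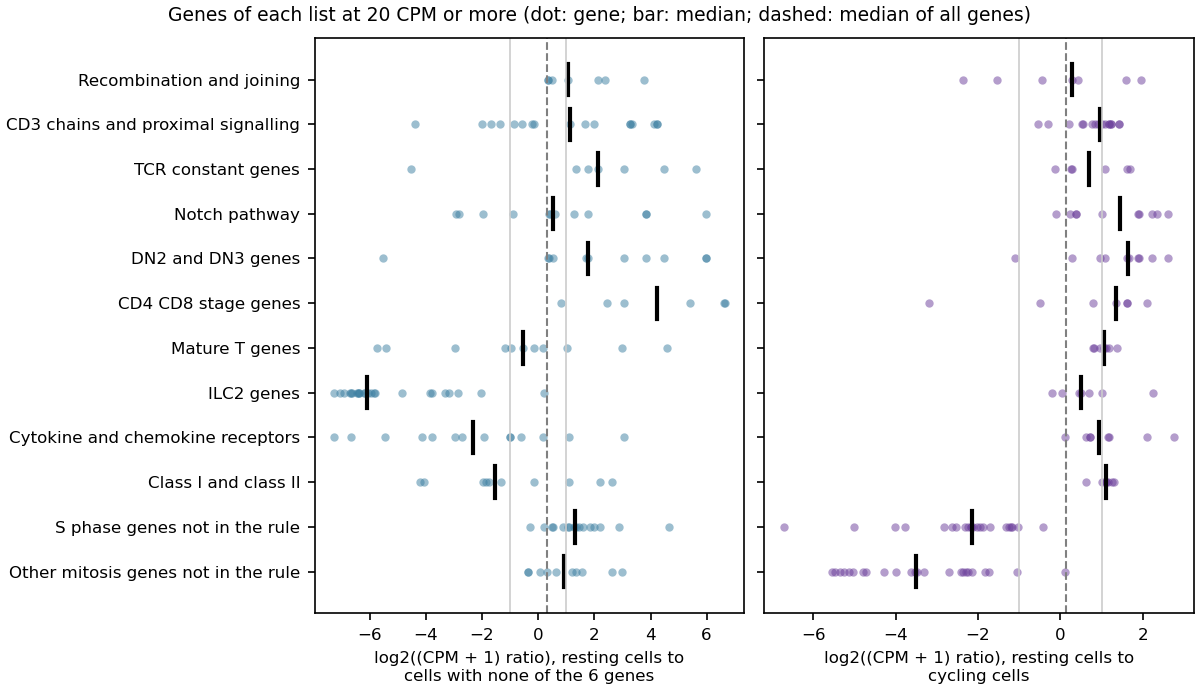
Log2 ratio of CPM + 1 (horizontal axes) of resting to comparison cells (left) and of resting to cycling cells (right) for the genes of 12 lists with at least 20 CPM in either class, genes of the thymocyte rule left out; dots are genes, bars list medians, dashed lines the medians of all genes (0.33 and 0.13), and grey lines 2-fold. The ILC2 genes lie low on the left, with a median of -6.11, and the S phase and mitosis genes low on the right, with medians of -2.14 and -3.51.

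The resting cells differed among themselves. Graph clustering without the 18 genes of the rule split them into 9 clusters of 151, 147, 68, 64, 62, 61, 47, 24 and 8 cells, numbered here by size, and since the clusters were made from these genes their levels are given as a description. Ptcra and Rag1 were high and low in much the same clusters. In cluster 1 (151 cells) Ptcra stood at 329 CPM (289 to 373) and Rag1 at 269 CPM (233 to 309), with Notch3 at 115 CPM, Dtx1 at 58.7 CPM and Cd3d at 1989 CPM. In cluster 6 (61 cells) Ptcra and Rag1 each stood at 18.3 CPM (7.91 to 36.1), with Notch3 at 27.5 CPM, Dtx1 at 6.87 CPM and Cd3d at 350.5 CPM.

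Cluster 6 was led by Cpa3, a protease of mast cells that early T cell progenitors also carry, at 662 CPM (588 to 743) against 5.46 CPM in cluster 1. Plac8 stood at 3077 and 445 CPM in these clusters, Tcrg-C1 at 1420.3 and 315 CPM, and Klf2, a factor of quiescent lymphocytes, at 630.0 and 47.8 CPM. Of the 138 resting cells with a UMI of Cpa3, 50 were of cluster 6.

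Cluster 5 (62 cells) carried replication genes although it passed the rule on cycle genes. Ung, which removes uracil from DNA, stood at 177 CPM (144 to 215) against 7.97 CPM in the other resting cells, Mcm3 at 279 and 32.8 CPM, and Mcm6 at 448 and 116 CPM, and 53.2% of its cells had 1 of the 12 cycle genes. In the cycling cells Ung stood at 113 CPM, below this cluster, and Lig1 at 180 CPM, above its 139 CPM in the cluster. The median of 9092.5 UMIs in cluster 5 was the highest of the 9 clusters. Cluster 7 (47 cells) was led by Ramp3, a receptor partner, at 366 and 22.0 CPM, with Gzmb at 151 and 16.0 CPM and Crem, a cAMP-responsive factor, at 317 and 65.8 CPM, and its Hspa1a stood at 24.2 CPM against 1399 CPM in the other resting cells. Cluster 3 (68 cells) likewise had low Hspa1a, 217 CPM, and low Klf2, 5.63 CPM, but Ptcra at 234 CPM. Cluster 8 (24 cells) had genes induced by interferon among its leading genes, Ifit1 at 292 and 11.6 CPM, Irf7 at 349 and 28.6 CPM, and the chemokine Cxcl10 at 162 and 3.51 CPM. Irf7 had a UMI in 19 of the 24 cells and Ifit1 in 10, but the 20 UMIs of Cxcl10 lay in only 2.

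Cluster 9 (8 cells), led by the chemokine Cxcl2, which had a UMI in 4 of the 8, held genes of ILC2s beside those of thymocytes. S100a4 stood at 900.4 CPM (674 to 1178) against 1.06 CPM in the other resting cells, Cxcr6 at 187 and 0.266 CPM, and Il1rl1 at 136 and 0.266 CPM, while Dntt stood at 1257 CPM and Rag1 at 221 CPM. Of these 8 cells, 7 had 2 or more of the 12 ILC2 genes, out of 11 such resting cells in all, and their median was 7303.5 UMIs. No doublet caller was run, and whether 2 cells shared a droplet was not tested. Without these 8 cells, 1366 genes were at least 2-fold higher and 818 lower than in the comparison cells. Clusters 2 and 4 (147 and 64 cells) had levels of Ptcra between those of clusters 1 and 6, at 218 and 184 CPM. The number of clusters was set by the resolution, with 6 at 0.5 and 4 at 0.3, and each of the 3 settings gave a cluster of 8 cells.

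**Figure D5:**
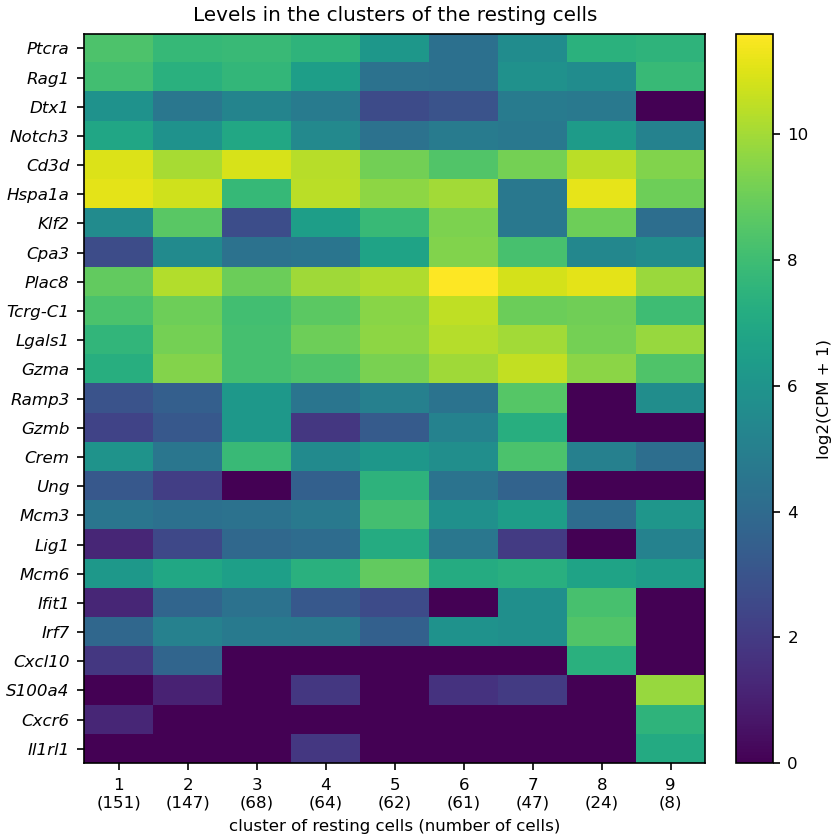
Level as log2(CPM + 1) (colour) of 25 genes (vertical axis) in the 9 clusters of the resting cells (horizontal axis, with the number of cells). Ptcra is lowest in cluster 6, where Cpa3 is highest, Rag1 is low in clusters 5 and 6 (19.6 and 18.3 CPM), replication genes stand out in cluster 5, interferon-induced genes in cluster 8 and ILC2 genes in cluster 9.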

How the data were processed

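Lung cells sorted as ILC2s gave 5 libraries. For each, the authors deposited a matrix of UMI counts, not normalized, made with Cell Ranger (3.0.2, and 6.0.0 in the header of the naïve matrix). The submitters' processing notes name Cell Ranger 3.0.2, Seurat 3 and GRCm38, and the annotation is not given in the sources used here. Deposited totals were 33522126 (naïve), 33324823 and 9910201 (ta-non-activated, weeks 2 and 3) and 68919437 and 71126524 UMIs (ta-activated), over 6953, 1853, 1838, 3579 and 4405 barcodes. The 27726 genes common to the matrices were used.

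A barcode entered with 200 or more genes detected and a mitochondrial share below 5%. The second limit removed 201 barcodes of the library studied here, of which 94 met the rule for resting cells. Counts were summed per class and expressed as CPM. Ratios are log2 of CPM + 1 for genes with 20 CPM or more in either class. Folds against a class at 0 and limits for a share of 0 use 3 counts, other folds carry exact conditional intervals, and no test was run. Thinning drew 2000 UMIs a cell and left out 7 resting, 1 cycling and 94 comparison cells. Python 3.11.15 with scipy 1.17.1, scanpy 1.11.5 (1500 variable genes, 15 components, 15 neighbours, resolution 0.8, chosen after other settings were seen) and edgeR 4.0.16 for TMM factors were used. The ratio and interval code was tested on simulated data.

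The cells and the 30 gene lists were chosen with earlier results of these data known. Named genes are list examples, the 15 highest and 10 lowest ratios against the comparison cells and the 10 highest and 10 lowest against the cycling cells, with genes of the rule left out, and genes of the clusters, which were chosen after their values were seen. A few genes that the rule or the lists hold are not reported here by name.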

Additional observations from a re-analysis of the deposited data

Results flagged for a closer look

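In the week 3 ta-activated library 6 cells met the rule for resting thymocyte-gene cells, a signal outside the comparisons above, where 0 of 6389 naïve cells did. They had 3034 to 14411 UMIs. Their UMIs were mostly of Ly6d, 123 in 5 of the cells, with 4 of Dntt, 4 of Arpp21, 1 of Myl10 and 0 of Ptcra and Rag1. All 6 had a UMI of Cd3g, 40 in all, and 1 of the 6 had 113 UMIs of Il13 and 44 of Areg. Whether they are cells of the same kind as those of the fresh library was not tested.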

How the results depend on the processing

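The share of resting cells, 39.5%, stayed within its counting interval with 3 of 6 genes required, with Ly6d left out or with a mitochondrial limit of 10%. It was 28.6% with none of the 12 cycle genes allowed and 45.4% (679 of 1495 cells) when cells were thinned to 2000 UMIs before the rule, which leaves out shallower cells and thins the cycle genes. The parts of these were not separated. Genes higher and lower than in the comparison cells numbered 2097 and 1412 with a filter of 5 CPM, 398 and 282 with 100 CPM, and 547 and 530 against all cells that are not resting cells. Against the cycling cells, a filter of 5 CPM gave 1303 higher and 680 lower, 100 CPM gave 211 and 184, and TMM scaling gave 487 higher. Resolution 0.3 gave 4 clusters. The other 22 recomputed counts and shares lay within 1.5 times the value or its interval, among them those without the cluster of 8 cells, an alternative added after seeing the data. No named ratio changed sign. Leaving out resting cells with any ILC2 gene brought Il1rl1 and Areg to 0, by construction, and moved Gzma to 638 CPM and Hspa1a to 1342 CPM. No paired analysis was possible because each group has 1 library. Depth limits genes with few UMIs, for which absence in a cell is not shown, and the lack of replicates leaves differences between mice unmeasured.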
